A study of Mus musculus with 2 samples.

Results

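A set of 10 genes for the uptake of dead cells and modified lipoproteins was followed across the cell types of mouse spleen: Axl, Mertk, Gas6, Timd4, Marco, Mrc1, Cd5l, Cd36, Cd68 and Siglec1. They were chosen by name from the 31017 gene symbols of the table, and transcripts of all 10 were found in the cells kept. The study put spleen cells of WAS-KO and WT mice through droplet sequencing of transcript 3' ends (10x Genomics), in which each transcript molecule is counted once through a unique molecular identifier (UMI). The labels give 1 sample of each genotype, both from mice aged 6 to 8 weeks, and both carry the mouse model label Wiskott-Aldrich Syndrome, an immune deficiency caused by loss of the actin regulator WASp. They give no strain, allele, sex or number of mice per sample. All 7524 barcodes stand in 1 pooled table and cannot be tied to a sample, so no WAS-KO cell could be set against a WT cell and no comparison of genotypes was made. Every level below mixes both genotypes, and the 1 pooled table allows no p-value.

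Macrophages clear dying cells in steps: bridging molecules such as Gas6 bind phosphatidylserine on the dying cell, tethering receptors such as Timd4 hold it, and tyrosine kinase receptors of the TAM family (Tyro3, Axl and Mertk) drive its engulfment. Scavenger receptors (Marco, Cd36) and lectins (Mrc1, Siglec1) bind lipoproteins, microbes, glycans and debris, and lysosomes holding Cd68 receive the cargo. In the spleen, red pulp macrophages remove aged red cells, whereas macrophages of the marginal zone face the blood entering the white pulp and are known for Marco and Siglec1.

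Mrc1, Cd5l, Timd4 and Marco carried the main contrast between macrophage subsets, so the 200 bases before their annotated starts are shown (RefSeq, build GRCm38.p6). They lie at chr2:14229214-14229413 (plus strand) for Mrc1, chr3:87357681-87357880 (plus strand) for Cd5l, chr11:46810599-46810798 (plus strand) for Timd4 and chr1:120505025-120505224 (minus strand) for Marco. The genes themselves span chr2:14229392-14332057, chr3:87357881-87371073, chr11:46810800-46844332 and chr1:120474538-120505024 in the GENCODE annotation of the same build, in that order. The GENCODE start of Mrc1 lies inside its window, which was cut at the RefSeq start. Capitals mark matches, on either strand, to 3 short motifs: GAGGAAG (a PU.1 core), TGCTGA (a MAF core) and GAAANNGAA (an interferon response element core).
Mrc1: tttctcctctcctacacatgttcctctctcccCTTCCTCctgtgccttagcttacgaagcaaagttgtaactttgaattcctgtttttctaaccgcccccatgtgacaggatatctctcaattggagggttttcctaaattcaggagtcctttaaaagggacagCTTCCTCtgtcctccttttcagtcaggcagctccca
Cd5l: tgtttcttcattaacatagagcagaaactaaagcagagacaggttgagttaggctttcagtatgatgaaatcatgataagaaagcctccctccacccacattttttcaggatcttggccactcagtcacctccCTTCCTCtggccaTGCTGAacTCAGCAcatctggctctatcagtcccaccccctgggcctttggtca
Timd4: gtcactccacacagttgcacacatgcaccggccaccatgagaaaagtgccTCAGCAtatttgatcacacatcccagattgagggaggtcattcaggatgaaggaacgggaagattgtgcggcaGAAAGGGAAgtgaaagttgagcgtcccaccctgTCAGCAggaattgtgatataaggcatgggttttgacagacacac
Marco: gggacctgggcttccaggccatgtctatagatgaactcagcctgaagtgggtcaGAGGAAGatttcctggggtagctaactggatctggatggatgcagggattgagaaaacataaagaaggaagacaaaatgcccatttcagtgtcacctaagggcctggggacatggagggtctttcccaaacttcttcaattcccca
The PU.1 core lay in the windows of Mrc1, Cd5l and Marco and not in that of Timd4. The MAF core lay in those of Cd5l and Timd4. In Cd5l the first bases of these matches were 67, 54 and 46 bases before the start, whereas in Marco the single match began 146 bases before it. Of the other members, Axl had a PU.1 core 131 bases before its start and Cd36 a MAF core 11 bases before it. Searched over windows of 250 bases before to 50 after the start, 13.5% of 27025 promoters held the PU.1 core, 19.1% the MAF core and 8.57% the interferon response element core. AGATAA, a sequence that erythroid transcription factors bind, was in 11.4% of promoters and in none of the 9 promoters found for these genes (no entry for Siglec1). Variants of these letters, such as the TGATAA in the Cd5l window above, were not searched. A match is a description of these letters and not a binding site.

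Cells were kept if they had at least 200 genes and at most 10% of UMIs from mitochondrial genes, and called doublets were left out, which gave 6451 cells with 43297343 UMIs and a median of 5290 per cell. They were placed in 20 marker gates by raw transcripts of lineage genes, none of which is among the 10 genes. Levels are given as CPM, a gene's UMIs scaled to a gate total of 1000000, with exact Poisson intervals (95%) that cover counting error only. Since reads come from transcript ends, gene length does not enter, but levels are best compared for 1 gene across gates. A gate with fewer transcripts of a gene cannot be told apart from one whose cells hold more of other RNA. The macrophage gate held 588 cells with a median of 926 UMIs, far below the 13558 of classical monocytes. Of these macrophages, 103 also passed the gate of another lineage, 76 of them the erythroid one, and they held 966970 of the gate's 1810373 UMIs. The levels of the whole macrophage gate below include such cells unless stated, and levels without them follow.

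Macrophages held most transcripts of 8 of the 10 genes. The macrophage gate held 66.4% of the Axl UMIs in kept cells, 66.5% of those of Mrc1, 60.6% of those of Gas6 and 59.4% of those of Siglec1. Cd68 was spread over macrophages (27.0%) and classical monocytes (28.9%). Cd36 was distributed differently from all of these, with 5.23% of its UMIs in macrophages, 48.3% in B cells and 31.8% in erythroid cells.

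**Figure D1:**
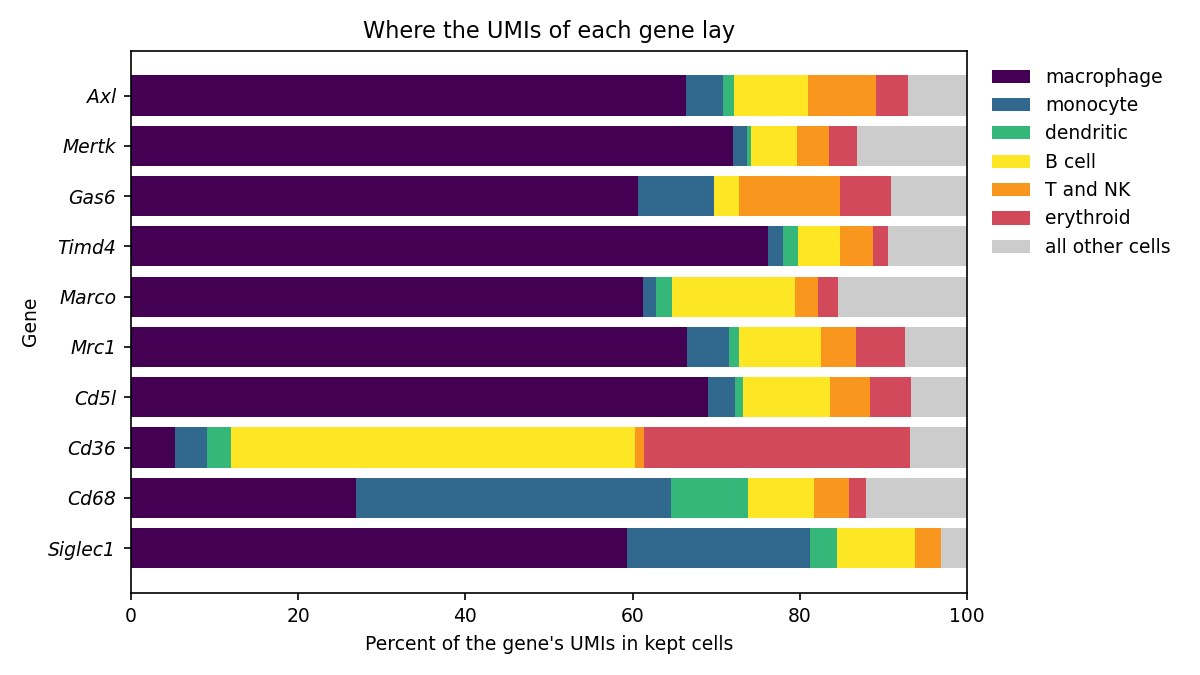
Percent of each gene's UMIs in kept cells (x axis) that lay in each group of cells (colours), for the 10 genes (y axis). Macrophages make up the longest segment for 8 genes; B cells (48.3%) and erythroid cells (31.8%) hold most of Cd36.

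Set beside classical monocytes, the blood cells that can replace tissue macrophages, the macrophage gate was higher for 9 of the 10 genes and lower for none. A gene is called higher or lower where the ratio is at least 2-fold and its exact conditional interval leaves out 1, and it is tested where the gates together hold 20 UMIs of it or more. Of 8739 genes so tested, 7.96% were higher and 27% lower in macrophages. The median log2 ratio of CPM + 1 was 4.34 over the 10 genes and -0.61 over all tested genes. The genes were picked as phagocyte genes with earlier results in view, so the count describes them. Classical monocytes held 18787 CPM of the neutrophil markers, with 12 of 12 detected, and their part in these ratios was not tested. Against the conventional dendritic gates (cDC1 and cDC2, 88 cells), 7 of the 10 were higher and none lower, where 8.71% of 7642 tested genes were higher and 17.3% lower.

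**Figure D2:**
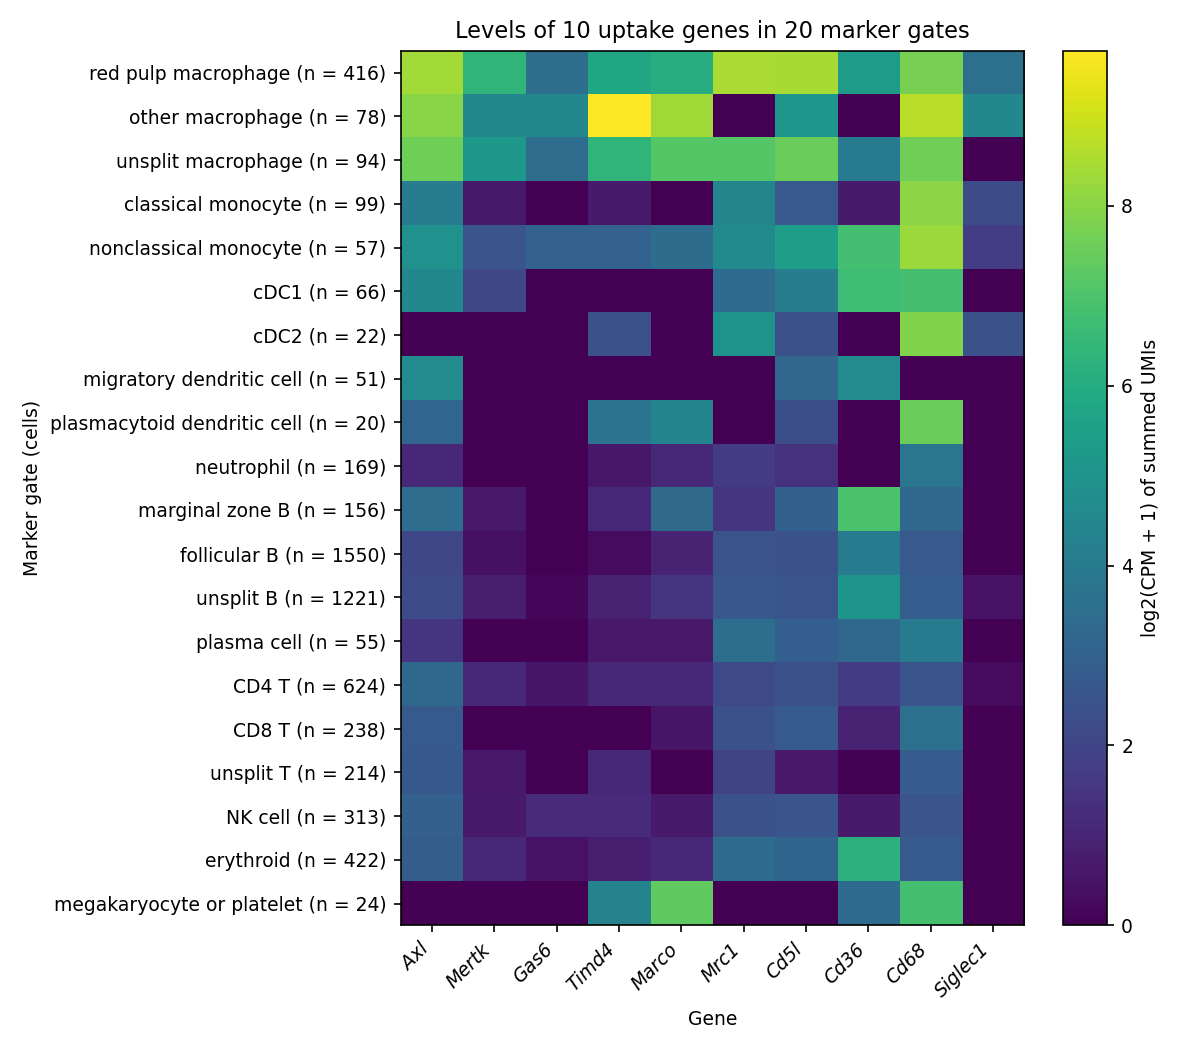
Levels of the 10 genes (x axis) in the 20 marker gates (y axis, with the number of cells), as the colour of log2(CPM + 1) of summed UMIs. All genes but Cd36 have their highest level in a macrophage gate; Cd36 has its own in marginal zone B cells, and Cd68 is high in monocytes and dendritic cells too.

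Axl, a TAM receptor induced by inflammation, was a macrophage transcript. It had 570 UMIs in 264 of the 588 macrophages, a level of 315 CPM (290 to 342), against 16.2 CPM (10.6 to 23.7) in classical monocytes, which is 19.5-fold (13.2 to 30.1). In no gate outside the macrophages did Axl exceed 29.1 CPM, the level in nonclassical monocytes. Mertk, the receptor most tied to engulfment by resident macrophages, had 131 UMIs (72.4 CPM) in macrophages and 1 UMI in classical monocytes, a ratio of 116 (20.5 to 4631). It was among the 10 genes with the highest fold over all other kept cells in the red pulp gate. Gas6, the ligand of the TAM receptors, was rare: 20 macrophages had 1 UMI each (11.0 CPM), and classical monocytes and conventional dendritic cells had 0. With a count of 0 taken as 3, the macrophage level was 5.92-fold and 2.01-fold higher, with exact lower limits of 4.39 and 1.48. Tyro3 had 2 UMIs in macrophages. Pros1, another TAM ligand, went the other way, at 8.84 CPM in macrophages and 22.4 CPM in classical monocytes, a ratio of 0.395 (0.205 to 0.730).

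The tethering receptor Timd4 had 170 UMIs in macrophages (93.9 CPM, 80.3 to 109) and 1 UMI each in classical monocytes and in conventional dendritic cells. Cd5l, a secreted scavenger receptor relative made by macrophages, had 318 CPM (293 to 345) in macrophages, 5.60 CPM in classical monocytes and 11.0 CPM in conventional dendritic cells. The mannose receptor Mrc1 stood at 314 CPM (289 to 341) in macrophages against 20.5 CPM (14.1 to 28.8) in classical monocytes and 18.4 CPM (8.81 to 33.8) in conventional dendritic cells. Marco, a class A scavenger receptor, had 158 UMIs (87.3 CPM) in macrophages and 0 in both other gates, so that macrophages were at least 46.8-fold higher than classical monocytes and at least 15.8-fold higher than the dendritic gates. Axl kept both calls under every alternative setting, and Mertk, Timd4, Mrc1 and Cd5l kept theirs wherever both gates held UMIs and the minimum was met. In the 485 macrophages of no other lineage Axl stood at 453 CPM, Mertk at 96.0, Timd4 at 181, Marco at 154, Mrc1 at 410 and Cd5l at 485 CPM. Gas6, Cd36 and Siglec1 then fell under the minimum of 20 UMIs and could not be tested against classical monocytes. Gas6 stood at 19.0 CPM there and Cd36 at 8.30 CPM, against 0 UMIs in classical monocytes, and Siglec1 at 10.7 against 4.63 CPM. The Gas6 call against the dendritic gates was lost under 8 alternatives, one of which kept the called doublets.

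Siglec1 (CD169), a sialic acid binding lectin of the marginal zone and lymph node sinuses, was nearly undetected. Its 32 UMIs in kept cells included 19 in 14 macrophages, 6 in classical monocytes and 1 in nonclassical monocytes. The macrophage level of 10.5 CPM (6.32 to 16.4) was 2.81-fold (1.08 to 8.61) that of classical monocytes, with a lower bound near 1. The 1.84 CPM of conventional dendritic cells rested on 1 UMI.

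Cd68 did not separate the phagocytes. It stood at 218 CPM (197 to 240) in macrophages, 262 CPM (238 to 289) in classical monocytes, 308 CPM (257 to 367) in nonclassical monocytes and 163 CPM (131 to 201) in conventional dendritic cells. The ratio of macrophages to classical monocytes was 0.829 (0.721 to 0.954), and with cells of other lineages left out it was 0.30 on the log2 scale (0.08 to 0.52), on the other side of equality. Neighbours in the order of levels, from the other macrophage gate (411 CPM) down to the red pulp gate (209 CPM), had overlapping intervals. Plasmacytoid dendritic cells had 187 CPM from 47 UMIs in 16 of 20 cells, and 51 migratory dendritic cells had no Cd68 UMI, with an interval up to 30.9 CPM.

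The red pulp gate and the other macrophages differed in the levels of some of the receptors. Red pulp macrophages (416 cells) were those with at least 3 of 6 red pulp markers detected. They also had more UMIs of these than of Pla2g2d, Nr1h3, Cd209b and Trem2. The other macrophages (78 cells) needed 1 UMI or more of those 4 genes, and at least as many as of the red pulp markers. This rule is looser than that of the red pulp gate. Mrc1 and Cd5l were higher in the red pulp gate and Timd4 and Marco in the other one. Of 8 genes tested, 2 were higher and 2 lower in red pulp macrophages, where 3.94% of 6346 tested genes were higher and 13.7% lower. Both gates had a similar median depth, 970.5 and 926 UMIs. Their RNA from other cells differed: haemoglobin genes made up 327677 CPM of the red pulp gate and 3063 CPM of the other gate, and the neutrophil markers 31437 and 799 CPM. In red pulp cells of no other lineage haemoglobin stood at 10709 CPM and the neutrophil markers at 73752 CPM. Neutrophils count as the same lineage there, and 12 red pulp macrophages that also passed the neutrophil gate held 172467 UMIs. Leaving out cells of another lineage kept the calls of Mrc1, Cd5l, Timd4 and Marco. Leaving out cells passing any other gate, the neutrophil gate included, kept those of Mrc1, Cd5l and Timd4 and lost that of Marco. Haemoglobin, immunoglobulin and mitochondrial genes were also taken out of the totals. This kept the calls of Mrc1, Cd5l, Timd4 and Marco and added Mertk (log2 ratio 2.46, 0.57 to 5.52).

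Mrc1 had 541 UMIs in 193 red pulp macrophages, 355 CPM (326 to 387), and none in the 78 other macrophages. Mrc1 was thus 10.7-fold higher with 0 taken as 3 counts, with an exact lower limit of 8.65-fold. In cells of no other lineage its red pulp level was 516 CPM (461 to 575), and the other gate again had 0 UMIs. Cd5l stood at 352 CPM (323 to 383) in red pulp macrophages, where 54.3% of cells had a UMI, and at 33.3 CPM, from 3 UMIs, in the other macrophages, a ratio of 10.6 (3.60 to 51.4). At 500 UMIs per cell, 28.6% of red pulp and 3.85% of other macrophages had Cd5l, and 20.7% and 0% had Mrc1. Among NK cells thinned in the same way Cd5l was in 0 of 313 and Mrc1 in 0.319%, and unthinned, at a median depth of 4557 UMIs, in 2.24% and 1.28%.

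The levels of Timd4 and Marco ran the opposite way. Timd4 had 76 UMIs in 24 of the 78 other macrophages, 843 CPM (664 to 1056), and 78 UMIs in 46 of the 416 red pulp macrophages, 51.2 CPM (40.5 to 63.9). The other gate was thus 16.5-fold (11.8 to 22.9) higher, and its cell with the most held 20 Timd4 UMIs. Leaving out cells of another lineage raised the red pulp level to 97.7 CPM, and the red pulp to other ratio was then -3.13 on the log2 scale (-3.64 to -2.62). Marco had 29 UMIs in 8 of the other macrophages, 14 of them in 1 cell, for 322 CPM (216 to 462), against 66.3 CPM (54.0 to 80.6) in the red pulp gate, which is 4.85-fold (3.09 to 7.39). That call was lost when cells passing any other gate were left out, with a log2 ratio of -0.61 (-1.26 to 0.07). The 94 macrophages that the rule did not split were intermediate, with 80.9 CPM of Timd4 and 142 CPM each of Marco and Mrc1.

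Axl and Mertk were present in both gates. Axl stood at 334 CPM (306 to 365) in red pulp and 255 CPM (162 to 383) in other macrophages, with overlapping intervals. Mertk stood at 80.1 CPM in red pulp and at 22.2 CPM, from 2 UMIs, in other macrophages, a ratio of 3.61 (0.978 to 30.2) that was not called. In cells of no other lineage both were called higher in red pulp macrophages, with a log2 interval of 0.39 to 1.68 for Axl and a log2 ratio of 2.38 (0.48 to 5.45) for Mertk. At a mitochondrial maximum of 5% the log2 ratio of Axl was -0.08 (-0.81 to 0.75), and neither gene was called. Cd68 was 209 CPM in the red pulp gate and 411 CPM in the other gate, a ratio of 0.509 just short of the call, and its log2 ratio was -0.12 (-0.63 to 0.43) without cells of another lineage. It was called lower in the red pulp gate at a mitochondrial maximum of 5% (-1.21, -1.81 to -0.56), with at least 500 genes per cell (-1.12) and with 1 more marker per gate (-1.16). Gas6 and Siglec1 had 2 UMIs each in the other macrophages, too few to test.

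**Figure D3:**
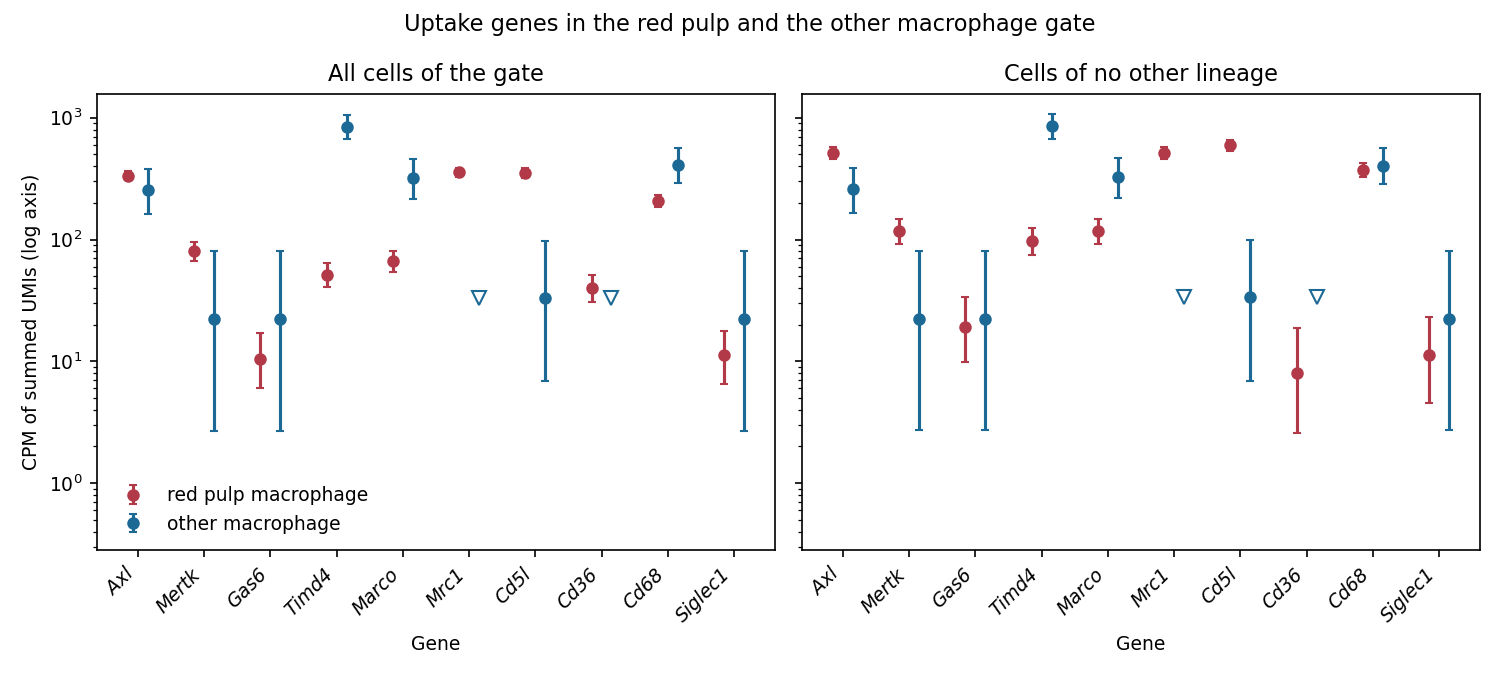
CPM of summed UMIs (y axis, log scale) of the 10 genes (x axis) in red pulp and other macrophages, for all cells of the gates (left) and cells of no other lineage (right); bars are exact Poisson 95% intervals and open triangles mark the level that 0 UMIs allows. Mrc1 and Cd5l lie higher in the red pulp gate, and Timd4 and Marco in the other, in both panels.

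Detection in the same cell followed the contrast between gates only in part. Among the 485 macrophages of no other lineage, Cd5l was detected in 62.2% (53.8 to 70.2) of the 143 cells with an Mrc1 UMI and in 28.4% (23.6 to 33.5) of the 342 without. Axl was in 58.7% and 33.9% of the same cells, whereas Timd4 was in 11.9% and 14.6% and Marco in 9.79% and 10.5%, with overlapping intervals. Marco was in 25.4% (15.5 to 37.5) of the 67 cells with a Timd4 UMI and in 7.89% (5.50 to 10.9) of the 418 without. Marco also went with Cd5l, which was in 58.0% (43.2 to 71.8) of the 50 cells with a Marco UMI and 36.1% (31.6 to 40.8) of the 435 without. Mertk, too, was detected more often beside Timd4, in 17.9% (9.61 to 29.2) against 7.42% (5.09 to 10.4) of cells, with intervals that overlap. Timd4 positive cells were somewhat deeper, with a median of 1040 against 795 UMIs, while Mrc1 positive and negative cells had 870 and 802.5. These intervals treat cells as independent draws from 1 pooled sample.

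**Figure D4:**
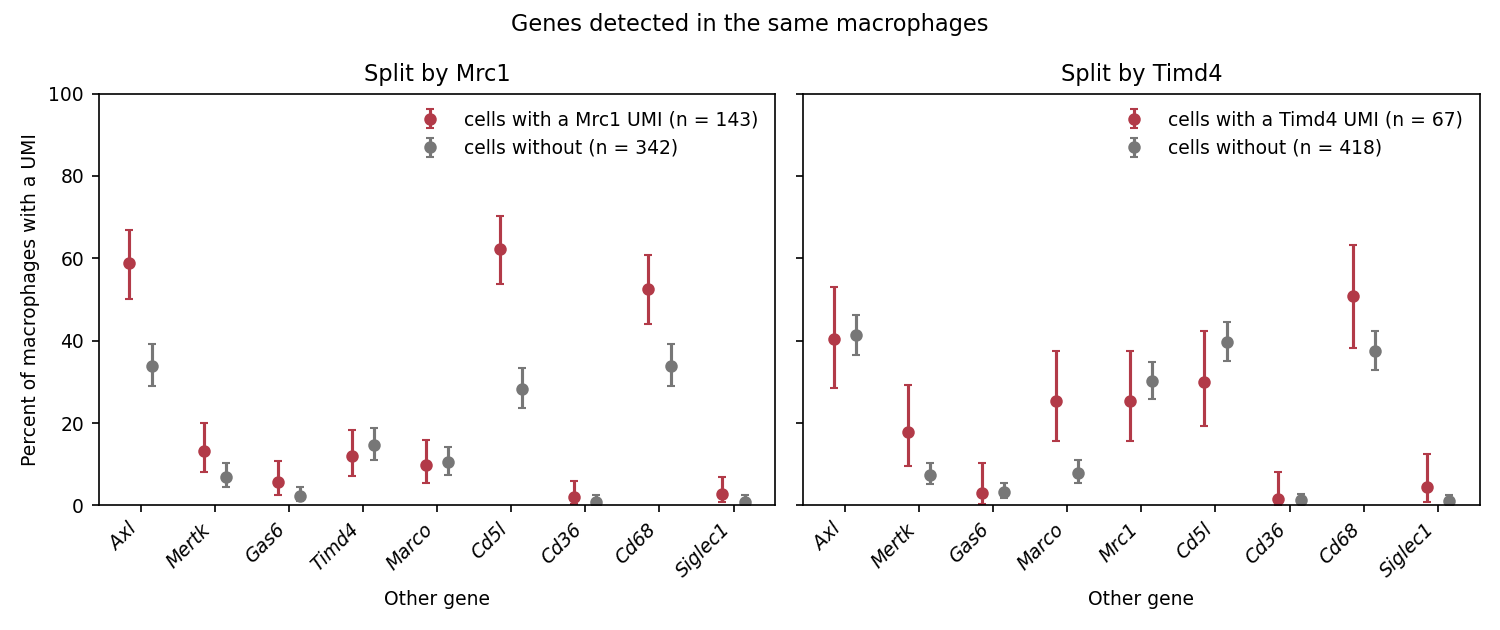
Percent of the 485 macrophages of no other lineage with a UMI of each other gene (y axis), for cells with (red) and without (grey) an Mrc1 UMI (left) or a Timd4 UMI (right); bars are exact binomial 95% intervals. Cd5l and Axl are detected more often beside Mrc1, and Marco more often beside Timd4.

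Cd36 is a class B scavenger receptor and fatty acid transporter, and in these cells it was not a macrophage gene. Its highest levels were 120 CPM (104 to 138) in marginal zone B cells, 112 CPM (81.7 to 149) in nonclassical monocytes and 104 CPM (71.8 to 146) in cDC1 cells, 3 gates whose intervals overlap. Erythroid cells followed at 74.5 CPM (67.3 to 82.3), but haemoglobin genes made up 685138 CPM of that gate. With haemoglobin, immunoglobulin and mitochondrial genes out of the totals, the erythroid gate had the highest Cd36 level. At 1000 UMIs per cell, with shallower cells left out, the cDC1 gate had the highest Cd36 level. Without cells passing any other gate the nonclassical monocytes had it. Red pulp macrophages had 40.1 CPM (30.6 to 51.5), but 8.01 CPM (2.60 to 18.7), from 5 UMIs, in the 321 red pulp cells of no other lineage, and the other macrophages had 0. The call of Cd36 above classical monocytes (56.9-fold, 9.85 to 2280) set 64 UMIs in macrophages against 1, and 7 of the 64 were in macrophages of no other lineage. Among those cells the ratio of macrophages to conventional dendritic cells was -2.95 on the log2 scale (-4.38 to -1.75), against -0.78 (-1.41 to -0.13) with them.

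Within B cells the Cd36 level was highest in the marginal zone gate, B cells that lie beside the blood sinus and respond to blood-borne antigens. The 1221 B cells placed in neither the marginal zone nor the follicular gate held 251 Cd36 UMIs, at 32.1 CPM (28.3 to 36.4). Cd36 had 204 UMIs in 83 of 156 marginal zone B cells and 136 UMIs in 108 of 1550 follicular B cells. These were 120 against 15.6 CPM, which is 7.69-fold (6.16 to 9.63). Thinned to 500 UMIs, 5.13% (2.24 to 9.85) of the marginal zone and 0.645% (0.310 to 1.18) of the follicular B cells had a Cd36 UMI, whereas 0 of 313 NK cells did. Of the 591 Cd36 UMIs in B cells, 2.20% lay in the 67 B cells that also passed the macrophage gate, against 57.1% of the Mrc1 UMIs and 47.1% of the Cd5l UMIs. Of 6 genes tested between the B cell gates, 3 were higher in the marginal zone gate (Axl, Marco and Cd36) and none lower, where 5.2% of 10149 tested genes were higher and 5.97% lower. Axl (3.11-fold, 1.60 to 5.89) had 17 UMIs there, 8 of them in 1 cell. Marco (10.3-fold, 4.14 to 27.7) had 16, 8 of them in 1 cell, and 4 once cells of other lineages were left out, when it fell below the minimum for a test.

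B cells with at least 3 proliferation markers had 52.7 CPM of Cd36 (40.5 to 67.5) and the rest 31.0 CPM (28.4 to 33.7). Erythroid cells showed the reverse order, 30.7 CPM (22.2 to 41.4) with proliferation markers and 90.5 CPM (81.2 to 101) without. In erythroid cells of no other lineage the levels were 26.2 CPM and 78.4 CPM, in the same order.

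**Figure D5:**
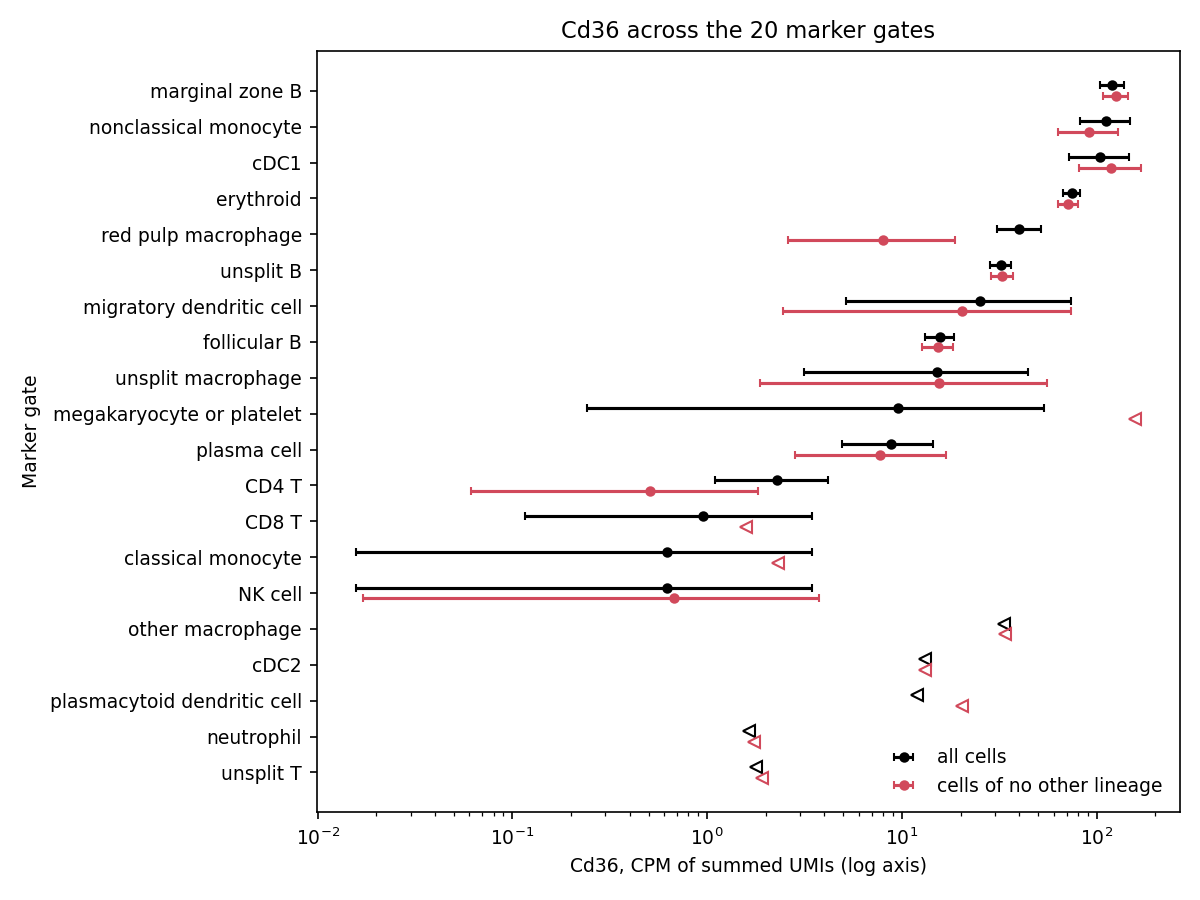
Cd36 level in CPM of summed UMIs (x axis, log scale) in the 20 marker gates (y axis), for all cells (black) and for cells of no other lineage (red); bars are exact Poisson 95% intervals and open triangles mark the level that 0 UMIs allows. Red pulp macrophages move from 40.1 to 8.01 CPM, while the marginal zone B, nonclassical monocyte, cDC1 and erythroid gates stay within their intervals.

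Between the monocyte gates, Cd36 and Cd5l were higher in nonclassical monocytes, the patrolling cells of the vessel wall. Of 5 genes tested, 2 were higher and none lower, where 10.7% of 7702 tested genes were higher and 7.8% lower. Cd36 had 46 UMIs in 20 of 57 nonclassical monocytes and 1 UMI in 99 classical monocytes, a ratio of 180 (30.7 to 7244). Cd5l stood at 41.3 CPM (24.0 to 66.1) and 5.60 CPM (2.56 to 10.6), a ratio of 7.37 (3.11 to 18.8). Neither call could be made when cells passing any other gate were left out, which left 23 nonclassical and 15 classical monocytes. Axl (29.1 against 16.2 CPM), Mrc1 (24.3 against 20.5 CPM) and Cd68 (308 against 262 CPM) had ratios whose intervals held 1. The summed level of the 10 macrophage markers was 1167 CPM in nonclassical and 433 CPM in classical monocytes, with all 10 detected in both, and their part in the Cd5l difference was not tested.

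The conventional dendritic gates also differed in Cd36. The 66 cDC1 cells, a subset known for taking up dead cells and presenting their antigens to CD8 T cells, had 33 Cd36 UMIs in 19 cells. The 22 cDC2 cells had none. Cd36 was thus 7.93-fold higher in cDC1 with 0 taken as 3 counts, with an exact lower limit of 6.09-fold. Cd68 was lower in cDC1, 114 CPM (79.7 to 157) against 232 CPM (174 to 304), a ratio of 0.489 (0.311 to 0.761) that 4 alternatives did not call. These were the 2 genes with enough UMIs to test, in a comparison where 4.97% of 3578 genes were higher and 22% lower. Axl had 7 UMIs in cDC1 cells and Mertk 1, and Timd4, Marco, Gas6 and Siglec1 had 0, each with an interval up to 11.7 CPM. The mannose receptor had 7 UMIs in 3 cDC2 cells and 3 UMIs in 2 cDC1 cells.

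Levels were also read in T cells, NK cells, neutrophils and the megakaryocyte or platelet gate. In CD4 T cells, with a median depth of 6583 UMIs, Axl was at 8.65 CPM (3.69% of cells), Cd5l at 4.32 CPM, Mrc1 at 3.41 CPM and Cd36 at 2.28 CPM. NK cells had 6.82, 4.96, 4.34 and 0.620 CPM of the same genes. Of 169 neutrophils, 21 had a Cd68 UMI (13.1 CPM, 8.41 to 19.5), and none had Cd36 or Siglec1. Marco in the megakaryocyte or platelet gate (163 CPM, 94.9 to 261) came from 17 UMIs in 3 of 24 cells, 14 of them in 1 cell, and Cd68 there (115 CPM) from 3 cells and from none of the 19 cells of no other lineage. In those 19 cells Marco stood at 782 CPM (438 to 1289), from 15 UMIs. Other macrophages of no other lineage had 326 CPM (218 to 468), an overlapping interval. That platelet gate was also highest for Marco at 1000 UMIs per cell, where 32 other macrophages were left, and without cells passing any other gate.

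Genes of the same pathways were read from 8 lists, leaving out genes that define a gate. The 10 members are in these lists, so the counts repeat their calls. Among the genes called higher than in classical monocytes, Axl, Mertk, Gas6, Timd4, Marco, Cd36, Cd5l, Mrc1 and Siglec1 are members already reported above. Macrophages that also passed another gate were included, and their part in the ratios was not tested. The counts below stand beside 7.96% higher and 27% lower over all genes tested in that comparison. In macrophages against classical monocytes, the TAM list had 3 of 4 tested genes higher (Axl, Mertk, Gas6) and 1 lower. Of 8 other phosphatidylserine receptors 2 were higher and 2 lower; Cd300a was at 144 and 227 CPM and Havcr2 at 36.5 and 21.1 CPM, neither called. Of 10 bridging molecules and their receptors 1 was higher and 6 lower, among them Lgals3, a galectin (0.208, 0.192 to 0.225), and Anxa1, an annexin (0.452, 0.401 to 0.509), while Calr was not called (0.692). Of 8 scavenger receptors and relatives 5 were higher and 2 lower, and Scarb2 was equal at 78.4 and 76.5 CPM within its interval. The lectin and complement receptor list had 5 of 8 higher and 1 lower, with the lectin Clec4n 26.0-fold higher and the integrin chain Itgb2 not called (0.657). Of 10 genes of lipid sensing and cholesterol export 5 were higher, including Rxra (2.89-fold), Abca1 (8.88-fold) and Abcg1 (2.72-fold), and 2 lower. Of 14 genes of engulfment and the lysosome 2 were higher, the proteases Ctsb (2.99-fold) and Ctsd (3.44-fold), and 2 lower, including the cholesterol carrier Npc2 (0.399). Of 5 genes for signals that hold uptake back, 2 were higher, with Cd24a at 10.2-fold (7.86 to 13.6), and 2 lower, with Pirb at 0.419, while Cd47 was not called (0.664).

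Red pulp against other macrophages, the engulfment and lysosome list leaned 1 way: none of 14 tested genes was higher and 8 were lower, where 13.7% of all tested genes were lower, with a median log2 ratio of -1.19 against -0.11 over all tested genes. Ctsb stood at 1792 and 4106 CPM, a ratio of 0.436 (0.391 to 0.488), Ctsd at 598 and 2574 CPM (0.232, 0.201 to 0.269) and Npc2 at 454 and 1032 CPM (0.440, 0.354 to 0.553). Haemoglobin and neutrophil transcripts, given above, took up part of the red pulp total. Cells that also passed another lineage or the neutrophil gate were included. Their part in the ratios of this list and of those below was not tested. Of 8 bridging molecules and receptors, 2 were higher in the red pulp gate (Lrp1 and Anxa1) and 2 lower (Anxa5 and Lgals3). Of 8 scavenger receptors, Cd163 and Cd5l were higher and Marco, Scarb2 and Cxcl16 lower. The TAM list had 0 of 2 tested genes called in either direction, and of 8 other phosphatidylserine receptors Timd4 was the 1 called. The shares over all tested genes were 3.94% higher and 13.7% lower. Of the remaining lists, 2 of 7 lectin and complement receptors were higher (Mrc1 and Clec12a) and 1 lower (Clec1b), 1 of 9 lipid genes was higher (Abcg1) and 1 lower (Rxra), and 2 of 5 inhibitory genes were higher (Cd24a and Pirb).

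The genes whose levels over the 20 gates were most like those of each member were found by Pearson's r of log2(CPM + 1) among 9662 genes, as a description with no test, since the gates share 1 library and differ in depth. Axl and Cd5l shared Cmbl (r = 0.90 and 0.87) and Fcna (0.85 and 0.85), and Fcna was also first for Mertk (0.92). Timd4 and Marco had the same 3 genes, Etv5 (0.92 and 0.87), Epb41l3 (0.92 and 0.84) and Igf1 (0.89 and 0.84), and had an r of 0.91 with each other. Mrc1 was most like Cd163 (0.86), Gas6 like Adamdec1 (0.94) and Cd68 like Ifi207 (0.95). Siglec1 followed Plxna1 (0.82), on few UMIs. Cd36 had the lowest such value, 0.65 with Plpp1, and its r with Timd4 was -0.13.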

How the data were processed

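Droplet 3' libraries of spleen cells were measured in 2 samples, and 1 table for both was used here. Its values are raw UMI counts per gene symbol and barcode, which the authors deposited without normalization (whole numbers, barcode totals of 500 to 129686). Transcripts were placed on mm10, per the labels' protocols and the submitters' processing notes, and for the aligner the name is not given in the sources used here. None of the 7524 columns names a sample, so the table was treated as 1 pooled sample, barcodes shared between libraries could not be counted, and p-values were not computed. The spread between mice is not known.

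Barcodes with under 200 genes or over 10% mitochondrial UMIs were left out (936), as were 137 doublets called by Scrublet (scanpy 1.11.5), leaving 6451 cells. Each cell went to the gate with the highest share of its markers detected, with ties left out. UMIs were summed per gate. Levels carry exact Poisson, shares exact binomial (Clopper-Pearson) and ratios exact conditional binomial intervals at 95%, for counting error only. In folds, and in the open triangles of the figures, a count of 0 was taken as 3 counts. Such a fold is given with its exact lower limit. Shares were also computed on cells thinned to 500 UMIs. The ratio script was tested on simulated data. Python 3.11.15, numpy 2.4.6, scipy 1.17.1, pandas 2.3.3 and matplotlib 3.10.9 were used.

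All 10 members are named, with the 3 genes of each pathway list that had most macrophage UMIs and the 3 genes most like each member, of which the text gives some; other genes of a list are named, without values, where they were called. The members and lists were chosen with earlier results of these data known, and the gate minimums and the rules that split gates were set after the data were seen. Alternatives changed the filters, doublets, markers, totals, depth and UMI minimum; leaving out cells that pass any other gate was added after seeing the data.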

Additional observations from a re-analysis of the deposited data

Results flagged for a closer look

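The barcodes left out by the filters entered no reported level and only the alternatives that relax the mitochondrial maximum. They held transcripts of all 10 genes, each above the 3 counts that a count of 0 was taken as. They were 936 barcodes with 4.54% of the table's UMIs, 857 of them over the mitochondrial maximum, and 515 fell in the macrophage gate, against 588 macrophages kept. They held 848 Axl UMIs (48.6% of those in the table), 173 of Mertk (47.3%), 23 of Gas6 (41.1%), 1038 of Mrc1 (53.7%) and 809 of Cd5l (48.2%). Smaller shares were left out for Timd4 with 75 UMIs (24.6%), Marco with 130 (32.7%), Siglec1 with 14 (29.8%) and Cd68 with 339 (18.6%). For Cd36 they held 60 UMIs (4.58%). Of the Axl UMIs 808, and of the Mrc1 UMIs 989, lay in the 515 barcodes of the macrophage gate, against 8 of the Cd36 UMIs.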

How the results depend on the processing

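No paired analysis was possible because both samples stand in 1 pooled table whose columns carry no replicate number, and for the same reason no replicate could be left out. Ratios were recomputed under the alternatives only where both gates held UMIs and the minimum of 20 was met in that setting. Of 311 such ratios, 44 fell outside the interval of the reported value. Of 189 called among them, 185 kept their call and 0 changed sign. Calls against a count of 0, or that fell under the minimum, are not in these counts. At 1000 UMIs per cell 8 called ratios entered, and 12 without cells passing any other gate, against 21 with called doublets kept. The setting of 1000 UMIs left out cells with fewer. Macrophages went from 588 to 265 and other macrophages from 78 to 32, while classical monocytes stayed at 99. Ratios that were not called could change sign, as Cd68 did between macrophages and classical monocytes (log2 -0.27, and 0.30 without cells of another lineage). The number of genes lower in macrophages than in conventional dendritic cells went from 0 to 1 (Cd36) with no mitochondrial maximum, without cells of another lineage, at 1000 UMIs per cell and without the 1% of cells with most UMIs. Higher in nonclassical than classical monocytes were 2 genes, against 1 at a mitochondrial maximum of 5%, 4 with no UMI minimum, 0 at 1000 UMIs per cell and 0 without cells passing any other gate. In red pulp against other macrophages the 2 higher genes became 4 (Axl and Mertk added) with no mitochondrial maximum, without cells of another lineage and without cells passing any other gate, and 3 with haemoglobin, immunoglobulin and mitochondrial genes out of totals (Mertk) or at 1000 UMIs (Axl). The 2 lower genes became 1 without cells passing any other gate, and 3 (Cd68 added) at a mitochondrial maximum of 5%, with at least 500 genes and with 1 more marker. Between cDC1 and cDC2 the 1 higher gene became 0 at 1000 UMIs and without cells passing any other gate, and the 1 lower gene became 0 with no mitochondrial maximum, 1 more marker per gate, 1000 UMIs or the 1% left out. Between marginal zone and follicular B cells the 3 higher genes became 1 at 5% mitochondrial UMIs, which left 27 and 120 cells, and 1 at 1000 UMIs, and the 0 lower became 1 (Mrc1) with no mitochondrial maximum. The causes were not tested, except that thinned and stricter settings hold fewer UMIs. Depth limits Gas6 and Siglec1 most, with 33 and 32 UMIs in kept cells.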
